A study of Macaca mulatta with 449 samples.

Results

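The caudate nucleus (CN) and the putamen (PUT) of the rhesus macaque were compared gene by gene in 16 of the 416 RNA-seq samples of a brain atlas, of which 408 are columns of the count table used here. The samples were taken by their sub-region label, 8 of CN and 8 of PUT, and each of 8 animals gave 1 sample of each. All 8 were healthy and untreated. Rhesus 2 (male, 10 years), Rhesus 3 (male, 10 years), Rhesus 6 (female, 10 years) and Rhesus 11 (female, 9.8 years) were mid-aged, and Rhesus 4 (female, 3.2 years), Rhesus 7 (male, 4 years), Rhesus 8 (male, 3.8 years) and Rhesus 10 (female, 5 years) were young. A sample was 1 small piece of dissected tissue, so neuron, glia and fiber RNA are mixed in it. In such bulk tissue, fewer cells of a type and less RNA per cell cannot be told apart. Samples of the nucleus accumbens (ACb), the globus pallidus (GP) and the corpus callosum (CC), 8 each from the same animals, served to class genes and to set levels side by side.

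CN and PUT together form the dorsal striatum, the input station of the basal ganglia. Most of its neurons are GABA-ergic medium spiny neurons, of a direct pathway marked by the D1 dopamine receptor, dynorphin and substance P and of an indirect pathway marked by the D2 receptor and enkephalin. Both kinds lie in a calbindin-rich matrix or in striosomes rich in the mu opioid receptor, among cholinergic and GABA-ergic interneurons. CN borders the lateral ventricle, which is lined by ciliated ependymal cells, whereas PUT lies against the pallidum and is crossed by more myelinated bundles.

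The CN libraries held 8797322 to 11695718 counts (median 11249095) and the PUT libraries 8101544 to 11540225 (median 9633014), and CN was deeper in 6 of 8 animals. A count above 1 was found for 17020 to 17535 genes in CN and for 16509 to 17220 genes in PUT, and CN had more such genes in 8 of 8 animals (exact sign-flip test over animals, two-sided p = 0.00781, the smallest it can give). This number rises with depth, and the part of depth in it was not tested. The striatal label was borne out by the markers: PPP1R1B (DARPP-32, the dopamine-regulated phosphatase inhibitor of medium spiny neurons) ranged from 1730 to 2904 CPM (counts scaled to library size) in CN and from 2239 to 3197 in PUT, against a mean of 66.7 in CC. The PUT library of Rhesus 3 stood apart in 1 respect. SLC17A7, the vesicular glutamate transporter of cortical excitatory neurons, reached 112 CPM there and between 0.226 and 4.03 in the other 7 PUT samples, so counts that rest on it are also given without Rhesus 3.

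Over all genes, 14410 passed the expression filter, and 5546 (38.5%) differed between CN and PUT at an adjusted p (Benjamini-Hochberg, edgeR quasi-likelihood test with the animal as a block) below 0.05. Of these, 2798 (19.4%) were higher in CN and 2748 (19.1%) in PUT. The median log2 fold change of all genes, CN minus PUT, was -0.01, and the balance of calls depends on this centering. With scaling factors taken only from genes that are not of the callosum-high or cilium-like classes described next, 2564 were higher in CN and 3188 in PUT. A fold above 2 was reached by 407 (2.82%) genes higher in CN and by 218 (1.51%) higher in PUT. The 8 CN and the 8 PUT values did not overlap at all for 521 genes (3.62%).

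Genes were then classed from samples outside the comparison. A gene was called callosum-high when CC exceeded ACb more than 2-fold at an adjusted p below 0.05, callosum-low when it was as far below, and cilium-like when it followed the ependymal list at a Pearson r of at least 0.7 over the other brain samples, which only 3 of the genes tested did. Of 2477 callosum-high genes, 1018 (41.1%) were higher in PUT and 234 (9.45%) in CN. Of 2948 callosum-low genes, 1265 (42.9%) were higher in CN and 299 (10.1%) in PUT. The 8982 genes in none of these classes split nearly evenly, with 1296 (14.4%) higher in CN and 1431 (15.9%) in PUT. They still held 13 of the 26 ependymal list genes tested, since the cilium-like class took only 1. Without Rhesus 3 the callosum-high genes gave 991 calls higher in PUT, the callosum-low genes 1206 higher in CN, and the remaining class 1076 and 1112.

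The oligodendrocyte and myelin genes were all higher in PUT. All 15 members measured, of 23 listed, passed the test, each at a fold above 2, with a median log2 fold change of -1.49. MBP (myelin basic protein) lay at 1671 CPM in the lowest, 2631 in the median and 4295 in the highest CN sample, and at 6948, 9982 and 12808 CPM in PUT. The groups did not overlap, and the log2 fold change was -1.86 ± 0.10 (SE derived from the F statistic, n = 8 animals, edgeR adjusted p = 1.68e-08). MOBP (myelin-associated oligodendrocyte basic protein), which ran from 32.4 to 62.4 CPM in CN and from 103 to 184 in PUT, was 3.33-fold higher in PUT.

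The 5 genes higher in PUT with the smallest p were CARNS1 (carnosine synthase), MOBP, CNDP1 (carnosine dipeptidase), MBP and MOG, all callosum-high. CARNS1 ranged from 13.9 to 40.4 CPM in CN and from 45.6 to 110 in PUT, with no overlap (log2 fold change -1.56 ± 0.07, adjusted p = 1.15e-08). CNDP1 ranged from 21.2 to 88.5 CPM in CN and from 93.1 to 283 in PUT (log2 fold change -1.95). Rhesus 4 was the lowest of both groups for CNDP1, and in PUT it was also the lowest for MOBP, MOG and MBP.

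Summed over the list, myelin RNA took 3798, 6248 and 8468 CPM in the lowest, median and highest CN sample and 13102, 18779 and 22417 CPM in PUT, against 93026 to 123108 in CC. The summed level was higher in PUT in every animal. A PUT sample thus held the myelin RNA of the same animal's CN with 7.62% to 16.8% (median 13.5%) of its counted RNA replaced by that of CC. This share gives a scale for every gene, called the mixture value here: the log2 difference, CN minus PUT, that would result if the RNA of PUT were that of CN with this share of the same animal's CC. A gene at 0 in CC has a mixture value of 0.20.

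**Figure D1:**
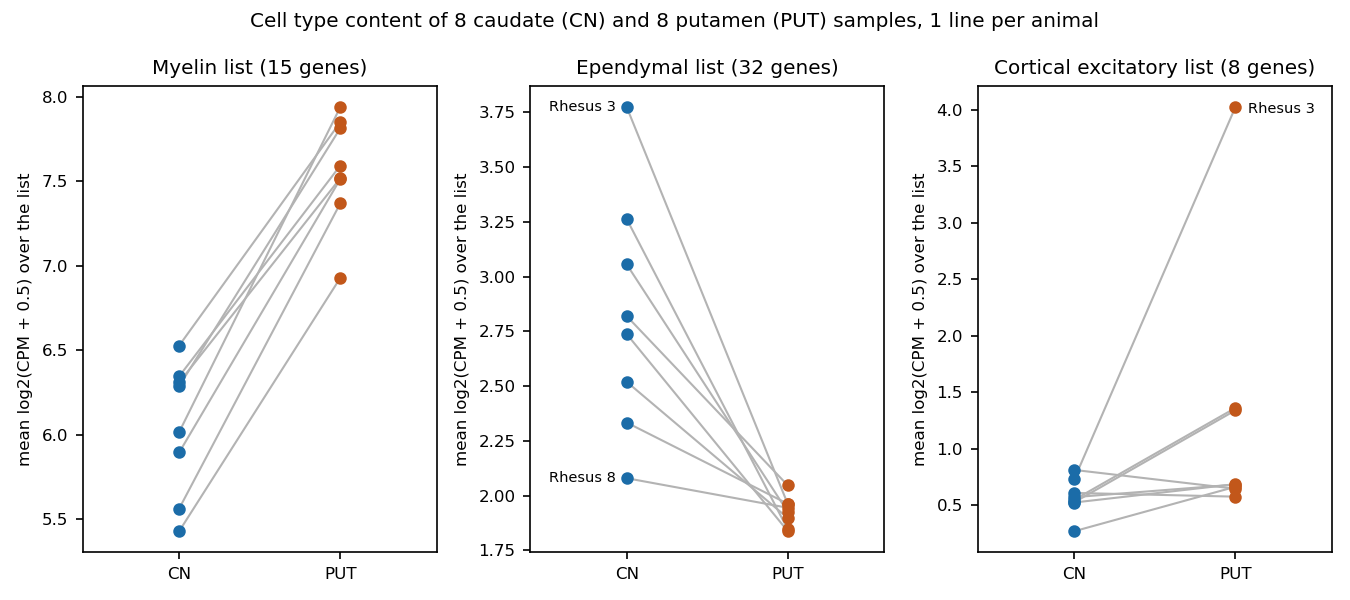
Mean log2(CPM + 0.5) over the myelin, ependymal and cortical excitatory lists (y axes) in CN and PUT (x axes), with 1 point per sample and a line joining the samples of an animal. Myelin was higher in all 8 PUT samples, the ependymal mean spread from 2.08 to 3.77 in CN against 1.84 to 2.05 in PUT, and the PUT sample of Rhesus 3 stood alone in the cortical list at 4.02.

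Measured differences were then set beside the mixture value. The median mixture value was -0.28 for the callosum-high genes, whose measured median was -0.19, and 0.14 for the callosum-low genes, whose measured median was 0.18. The same CC samples define these classes and enter the mixture value, so the signs of both mixture medians follow largely from the way they were made. MBP, MOG and the other genes of the myelin list set the share, so their mixture values are tied to their measured ones. CARNS1 and BCAS1 are not in that list, and measured -1.56 beside a mixture value of -1.65 and -1.39 beside -1.11. Of the 218 genes over 2-fold higher in PUT, 203 are outside the myelin list, and among these 116 lay within 0.5 of their mixture value and 62 lay more than 1 beyond it toward PUT. The mixture value was below 0 for 173 of the 218. The others were chosen for a fold above 2 and so had to lie more than 1 beyond theirs. The count of 62 therefore follows in part from that choice. Among the 407 genes over 2-fold higher in CN, the median mixture value was 0.13 and the median measured 1.35. The value of a gene at 0 in CC, 0.20, is about the highest the mixture can give. Genes chosen for a fold above 2 in CN therefore had to lie beyond it, and this gap says nothing about their source. The same CN samples enter both numbers, and CC carries ependymal and cortical RNA of its own, so the mixture value is a scale and not a fitted correction.

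**Figure D2:**
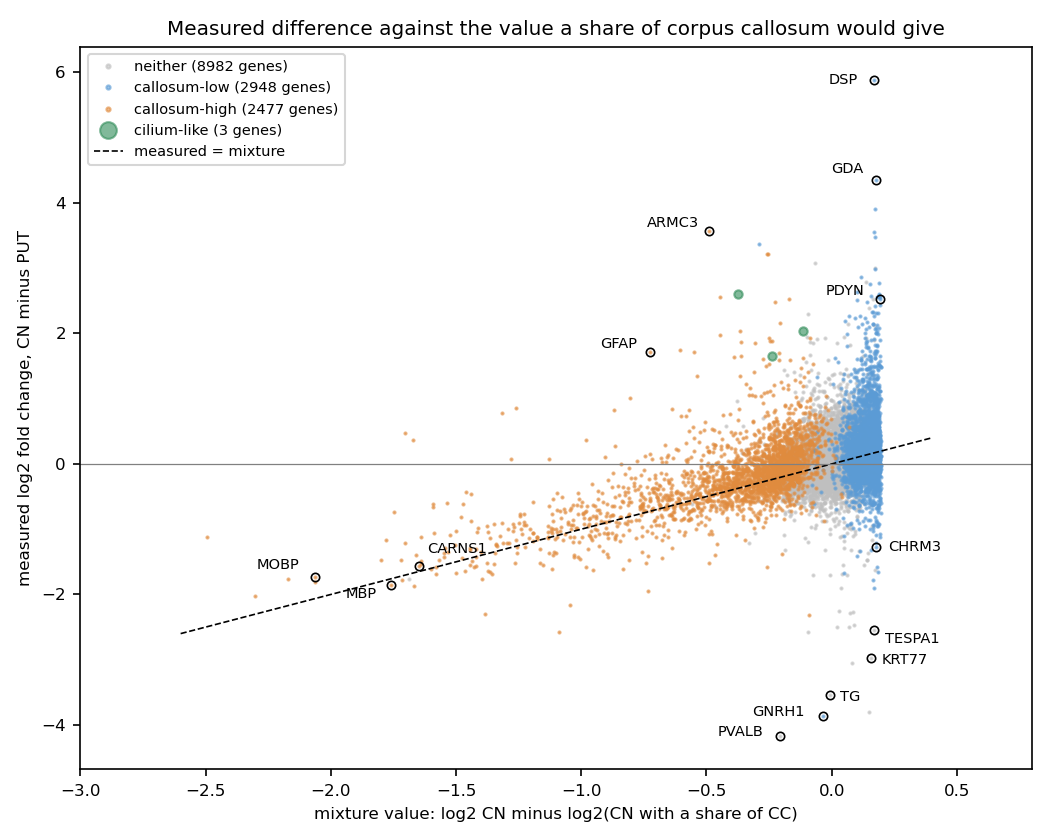
Measured log2 fold change, CN minus PUT (y axis), against the mixture value (x axis) for the 14410 genes tested, colored by class, with 1 gene left of the plotted range. CARNS1, which is not in the myelin list, lies near the dashed line of equality, as does MBP, which helped to set the share, whereas DSP (5.89), GDA (4.36), TG (-3.54) and PVALB (-4.17) stand far from it at mixture values between -0.21 and 0.18.

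Genes of the oligodendrocyte lineage before myelination did not move as a block. Of 9 precursor genes tested, 5 were higher in CN and 3 in PUT, beside 19.4% and 19.1% of all genes tested. Their median log2 fold change was 0.17. Those higher in PUT were BCAS1 (log2 fold change -1.39) and NEU4 (-1.47), which are also used by maturing oligodendrocytes, and OLIG2 (-0.44), a transcription factor of the whole lineage. TNR, the matrix protein tenascin-R, went the other way, at 16.8 to 41.6 CPM in CN against 4.44 to 24.1 in PUT (log2 fold change 1.62 ± 0.21, adjusted p = 3.17e-05).

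Ependymal and motile cilium genes were higher in CN. Of 32 measured, 26 passed the filter, and 21 of these were higher in CN and 2 in PUT, beside 19.4% and 19.1% of all genes tested. Their median log2 fold change was 0.93. Without Rhesus 3 the list counts were 18 and 1. The 2 higher in PUT, named after their values were seen, were RSPH1 (log2 fold change -0.29, adjusted p = 0.0094) and DNAI1 (-0.21, adjusted p = 0.034). FOXJ1, the master regulator of motile cilia, ran from 1.68 to 15.6 CPM with a median of 4.49 in CN and from 0.605 to 2.62 with a median of 1.12 in PUT. The groups overlapped, and 7 of 8 animals were higher in CN (log2 fold change 1.86 ± 0.36, adjusted p = 0.00116). ARMC3, an armadillo-repeat gene of ciliated cells, ran from 1.06 to 20.1 CPM in CN and from 0 to 0.848 in PUT without overlap (log2 fold change 3.57 ± 0.46, adjusted p = 3.88e-05). MAPK15, a kinase with a role in ciliogenesis, was 9.28-fold higher in CN, HYDIN, a central-pair protein of motile cilia, 3.60-fold, and DNAH5, an outer dynein arm heavy chain, 3.01-fold.

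CFAP161, a microtubule inner protein of motile cilia, showed the same split but had too few counts for the filter. It had between 4 and 70 counts in each CN library and 0 counts in every PUT library. Against a floor of 3 counts in each PUT library, it was at least 9.15-fold higher in CN. Its mean was 9.04 CPM in CC and 0.331 in ACb. Among other list members below the filter, MCIDAS was higher in PUT in 8 of 8 animals, at a mean of 0.459 CPM in CN and 1.25 in PUT. SPAG17 and CAPSL were higher in CN in 8 of 8. The list mean differed between CN and PUT by 0.14 log2 units in Rhesus 8, by 0.37 in Rhesus 11 and by 1.81 in Rhesus 3, and the 8 PUT samples stayed within 1.84 to 2.05, so the spread lay in CN.

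Because CC samples also carried cilium genes, 11 of the 26 ependymal genes fell in the callosum-high class. Of the rest, 13 fell in none of the classes, 1 in the callosum-low and 1 in the cilium-like class. The 11 callosum-high ones all had mixture values below 0, and 10 were higher in CN (for example FOXJ1, with a mixture value of -0.36, HYDIN at -0.30 and ARMC3 at -0.49). The exception, SPAG6, a central-pair protein of motile cilia named after its values were seen, did not pass (log2 fold change -0.26, adjusted p = 0.502). With the ependymal list mean added to the model, 557 genes (3.87%) were higher in CN and 516 (3.58%) in PUT, and the ependymal list, whose own mean was held, gave 1 call higher in CN and 2 in PUT. That mean followed the nucleus at r = 0.867 within animals, so this fit separates the nucleus from its ependymal content only in part. All 15 myelin genes were called in that fit. With the myelin list mean in the model no gene was called. The myelin mean followed the nucleus at r = -0.988 within animals, so the nucleus and its myelin content cannot be told apart by such a fit, and the classes and the mixture value were used instead.

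LHB, the luteinizing hormone beta subunit, was also callosum-high and higher in CN, at 1.26 to 22.3 CPM against 0 to 2.71 in PUT (log2 fold change 3.22 ± 0.61, adjusted p = 9.50e-04). Its value is uncertain, since the gene has near-identical relatives among which reads can be split. The choroid plexus list had 3 members above the filter, of which KL (klotho) was higher in CN (log2 fold change 0.66, also the median of the 3). The summed level of the 9 choroid genes measured was 13.6 to 26.3 CPM in CN and 8.23 to 18.9 CPM in PUT.

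Astrocyte genes differed in both directions. Of 11 tested, 5 were higher in CN and 3 in PUT, beside 19.4% and 19.1% of all genes tested. Their median log2 fold change was 0.00. GFAP, the intermediate filament of fibrous and reactive astrocytes, ran from 460 to 845 CPM with a median of 696 in CN and from 93.2 to 522 with a median of 182 in PUT. It was higher in CN in every animal (log2 fold change 1.71 ± 0.20, adjusted p = 1.61e-05), although it is callosum-high with a mixture value of -0.73. AGT (angiotensinogen) was 2.04-fold higher in CN without overlap and AQP4 (the water channel of astrocyte endfeet) 1.61-fold, whereas NDRG2 was 1.24-fold higher in PUT.

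Of 7 microglia genes, 2 were higher in CN and none in PUT, beside 19.4% and 19.1% of all genes tested. Their median was 0.25. The 2 were ITGAM (log2 fold change 0.40) and CSF1R (0.25), the second losing its call without Rhesus 3 (adjusted p = 0.0932). None of 9 endothelial and mural cell genes differed at the threshold, and their median was -0.11.

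**Figure D3:**
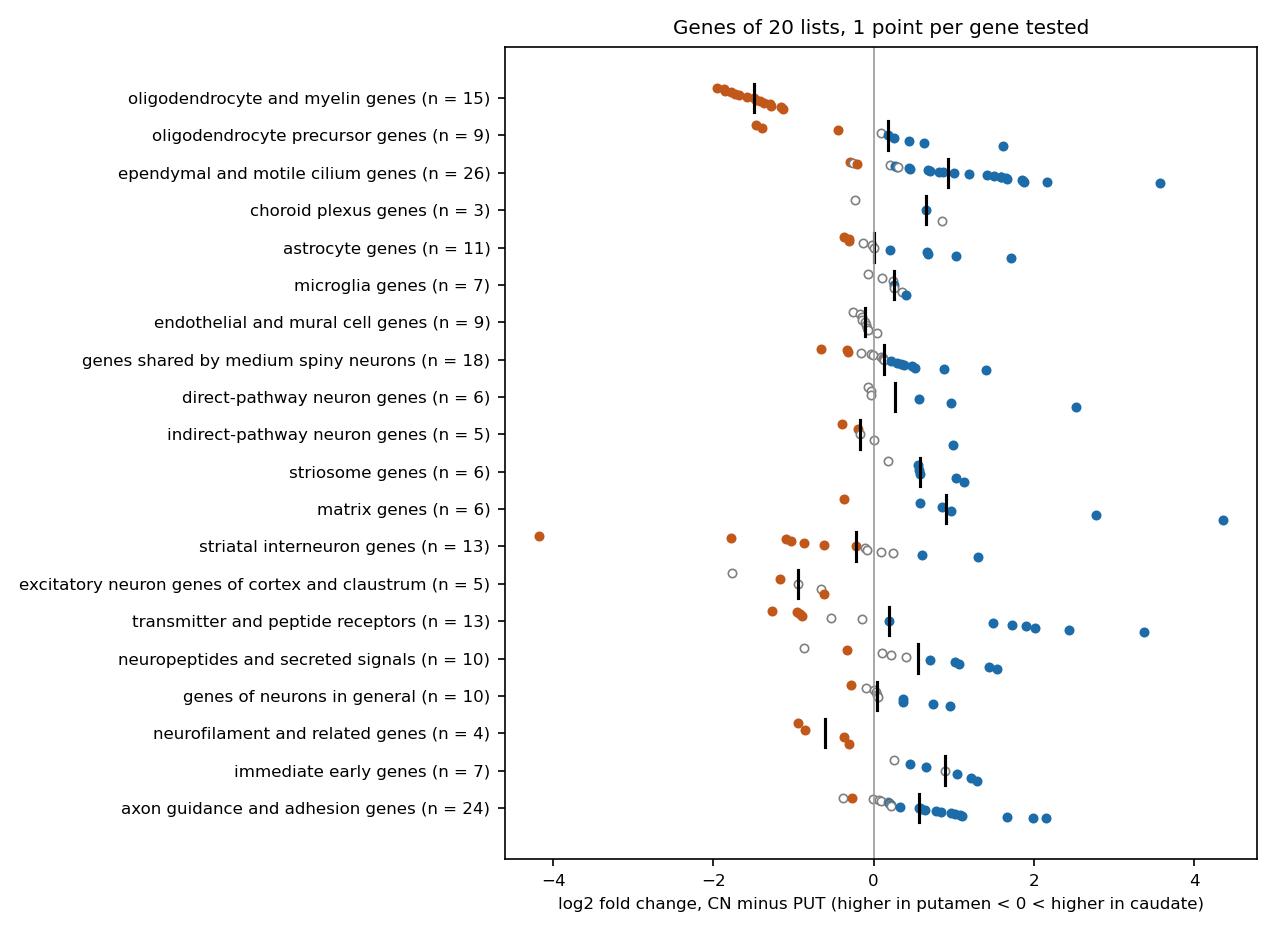
Log2 fold change, CN minus PUT (x axis), of every gene tested in 20 lists (rows), filled where the adjusted p was below 0.05 and open otherwise, with a bar at the median of each list. Myelin genes lie between -1.95 and -1.13, ependymal, matrix, striosome and guidance genes mostly above 0, and interneuron and receptor genes spread to both sides.

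Of 18 genes shared by medium spiny neurons, 8 were higher in CN and 3 in PUT, beside 19.4% and 19.1% of all genes tested. The list counts were 2 and 1 with the ependymal mean held. Their median log2 fold change was 0.13, and their summed level ran from 12587 to 16970 CPM in CN and from 12580 to 17142 in PUT. FOXP2, a transcription factor of striatal projection neurons, was at 43.1 to 58.4 CPM in CN and 9.63 to 31.1 in PUT without overlap (log2 fold change 1.40 ± 0.12, adjusted p = 8.59e-07). Its relative FOXP1 was 1.40-fold higher in CN and STRIP2 1.83-fold. RGS9, which shortens dopamine receptor signals, went the other way, from 120 to 206 CPM in CN against 185 to 300 in PUT, and was higher in PUT in 8 of 8 animals (log2 fold change -0.66 ± 0.05, adjusted p = 4.62e-07).

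Of 6 direct-pathway genes, 3 were higher in CN and none in PUT, beside 19.4% and 19.1% of all genes tested. Their median was 0.27, and the list counts were 2 and 0 with the ependymal mean held. DRD1, the D1 receptor, had 388, 506 and 608 CPM in the lowest, median and highest CN sample and 388, 525 and 639 in PUT. TAC1, which encodes substance P, had 454, 554 and 741 CPM in CN and 475, 609 and 734 in PUT. Neither passed the test (log2 fold changes -0.04 ± 0.07 and -0.07 ± 0.07, adjusted p = 0.71 and 0.451).

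PDYN, the prodynorphin gene of the same cells, was 5.78-fold higher in CN. It ran from 433 to 1079 CPM with a median of 772 in CN and from 53.7 to 504 with a median of 118 in PUT (log2 fold change 2.53 ± 0.27, adjusted p = 7.33e-06). The groups overlapped only between the lowest CN sample, of Rhesus 2, and the highest PUT sample, of Rhesus 4. ISL1 and EBF1, transcription factors of the direct-pathway lineage, were 1.48-fold and 1.96-fold higher in CN.

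Of 5 indirect-pathway genes, 1 was higher in CN and 2 in PUT, beside 19.4% and 19.1% of all genes tested. Their median was -0.17, and the list counts were 1 and 1 with the ependymal mean held. PENK (proenkephalin) had 1952, 2297 and 2443 CPM in the lowest, median and highest CN sample and 714, 1142 and 1979 in PUT, higher in CN in 8 of 8 animals (log2 fold change 1.00 ± 0.11, adjusted p = 1.17e-05). DRD2, the D2 receptor, had 220, 261 and 365 CPM in CN and 238, 370 and 457 in PUT, higher in PUT in 8 of 8 animals (log2 fold change -0.40 ± 0.05, adjusted p = 5.73e-05). GPR6, an orphan receptor of these neurons, was 1.15-fold higher in PUT, a call that was lost without Rhesus 3 (adjusted p = 0.0992).

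Most markers of both compartments of the striatum were higher in CN. Among 6 striosome genes, 5 were higher in CN and none in PUT, beside 19.4% and 19.1% of all genes tested. Their median was 0.57, and the list counts were 3 and 0 with the ependymal mean held. SEMA5B was 2.19-fold higher without overlap, with a lowest CN value of 10.5 CPM and a highest PUT value of 9.53, and KCNIP1, RASGRP1 and BACH2 were 1.47-fold to 1.49-fold higher. BACH2 is callosum-high, with a mean of 36.05 CPM in CC and 23.85 in CN, and the other 5 striosome genes are callosum-low. The part of other cells in the BACH2 level was not tested.

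Among 6 matrix genes, 5 were higher in CN and 1 in PUT, beside 19.4% and 19.1% of all genes tested. Their median was 0.91, and the list counts were 4 and 1 with the ependymal mean held. GDA (guanine deaminase) had 44.9, 106 and 124 CPM in the lowest, median and highest CN sample and 0.357, 1.21 and 38.4 CPM in PUT (log2 fold change 4.36 ± 0.51, adjusted p = 1.42e-05). CALB1 (calbindin) had 435, 639 and 721 CPM in CN and 19.6, 63.5 and 545 CPM in PUT (log2 fold change 2.77 ± 0.37, adjusted p = 4.52e-05). In PUT, Rhesus 4 was the highest and Rhesus 3 the next for both genes, and Rhesus 8 the lowest, also in CN. EPHA4 (a guidance receptor) and ID4 were 1.95-fold and 1.80-fold higher in CN without overlap. ID4 was not particular to striatum, with means of 111 CPM in CC and 133 in GP against 122 in CN. Of the matrix list, 4 genes are callosum-low and 1 is callosum-high. The exception, RASGRP2, named here after its values were seen, was 1.29-fold higher in PUT.

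**Figure D4:**
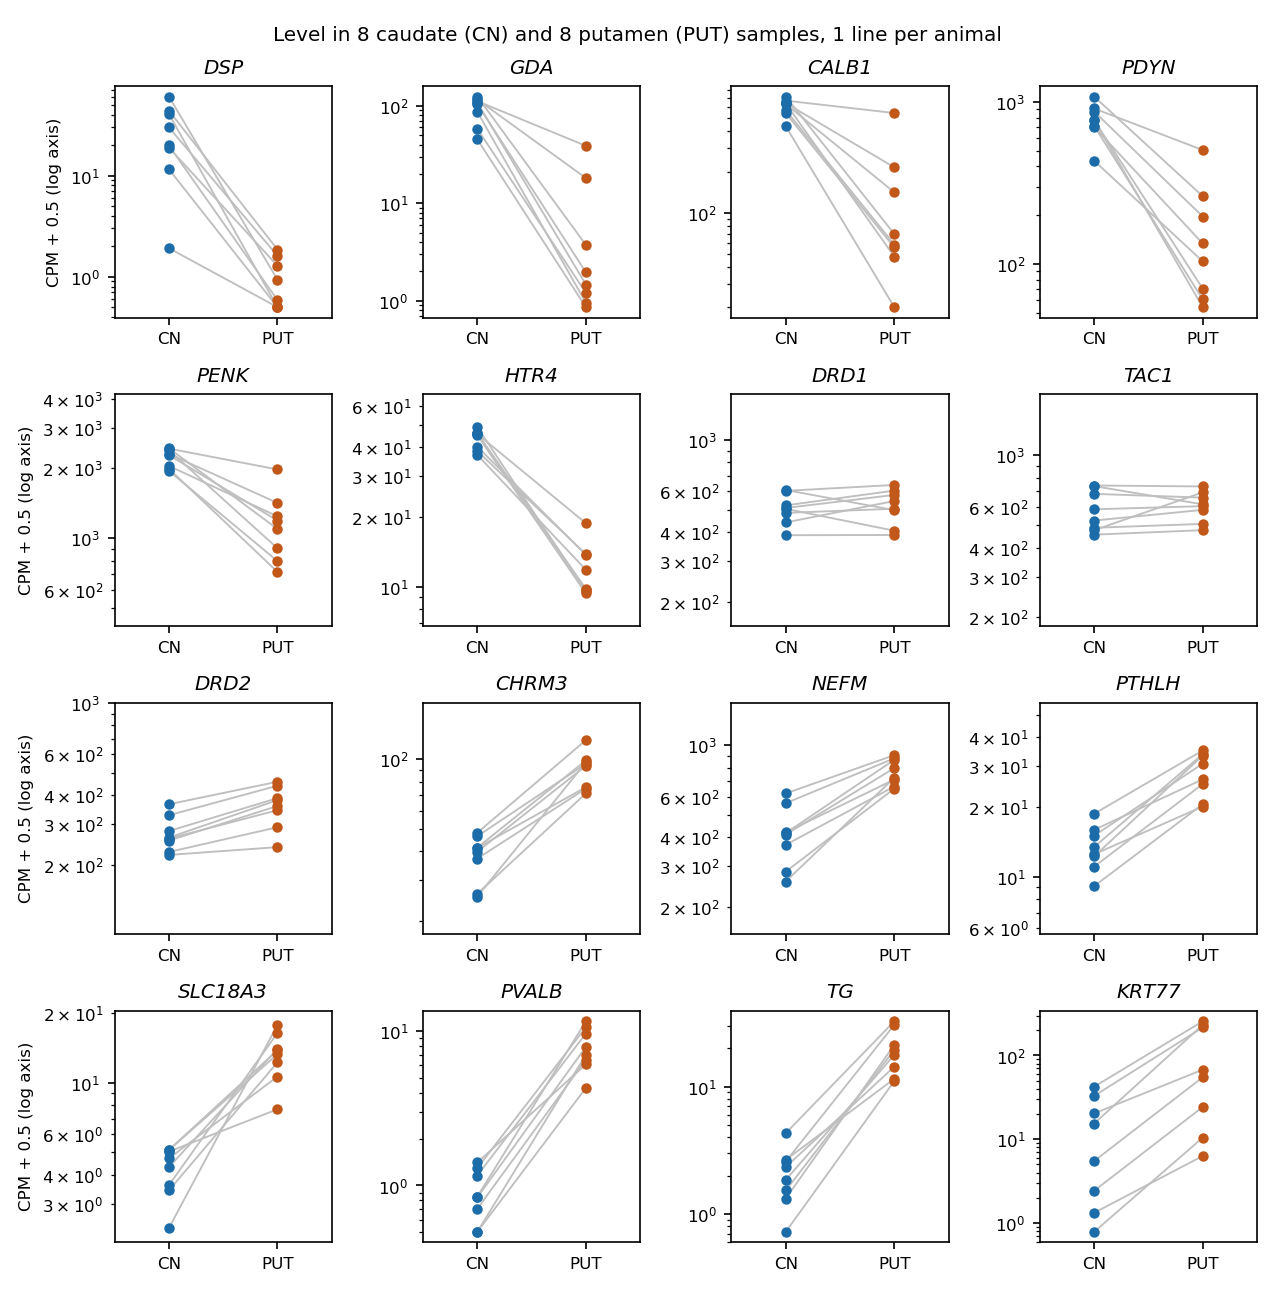
Level of 16 genes as CPM + 0.5 (y axes, log scale) in CN and PUT (x axes), with 1 point per sample and a line joining the samples of an animal. DSP, GDA, CALB1, PDYN, PENK and HTR4 fall from CN to PUT in every animal, DRD1 and TAC1 show no shared direction, and DRD2, CHRM3, NEFM, PTHLH, SLC18A3, PVALB, TG and KRT77 rise.

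Of 13 transmitter and peptide receptors tested, 7 were higher in CN and 4 in PUT, beside 19.4% and 19.1% of all genes tested. Their median was 0.20, and the list counts were 5 and 3 with the ependymal mean held. HTR4, a Gs-coupled serotonin receptor, ran from 36.6 to 48.5 CPM in CN and from 8.86 to 18.3 in PUT without overlap (log2 fold change 1.90 ± 0.13, adjusted p = 8.19e-08), and the Gi-coupled HTR1B was 3.30-fold higher in CN. GRM5, the metabotropic glutamate receptor 5, was 2.81-fold higher in CN, at 79.2 to 152 CPM against 22.8 to 75.5. CHRM3, a muscarinic acetylcholine receptor, was 2.42-fold higher in PUT, at 25.1 to 47.6 CPM in CN against 70.7 to 120 in PUT (log2 fold change -1.27 ± 0.09, adjusted p = 1.49e-07). CHRM3 is callosum-low, so its mixture value, 0.18, has the opposite sign.

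Neuropeptides and secreted signals were more often higher in CN, 5 of 10 against 1, beside 19.4% and 19.1% of all genes tested. Their median was 0.55, and the list counts were 3 and 0 with the ependymal mean held. NPTX2 (neuronal pentraxin 2) was 2.91-fold, VGF 2.02-fold and SCG2 (secretogranin II) 1.62-fold higher in CN, and CHGB (chromogranin B) was 1.26-fold higher in PUT. Immediate early genes, which neurons switch on within minutes of activity, were higher in CN for 5 of 7, beside 19.4% of all genes tested. Their median was 0.89, and only 1 was called higher in CN with the ependymal mean held. FOS ran from 15.0 to 56.7 CPM in CN and from 2.06 to 34.1 in PUT, and was higher in CN in 8 of 8 animals (log2 fold change 1.22 ± 0.30, adjusted p = 0.00611). FOSB, EGR2 and JUNB were 2.45-fold, 1.57-fold and 1.37-fold higher.

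Among axon guidance and adhesion genes, 16 of 24 were higher in CN and 1 in PUT, beside 19.4% and 19.1% of all genes tested. Their median log2 fold change was 0.57. SEMA3A, a secreted repellent, ran from 31.4 to 49.3 CPM in CN and from 4.52 to 20.1 in PUT without overlap (log2 fold change 1.99 ± 0.16, adjusted p = 4.71e-07). SLIT1, another repellent, was 4.43-fold higher in CN, at 10.8 to 47.9 CPM against 2.42 to 10.8. PCDH10 (a protocadherin) and EFNB3 (ephrin-B3) were 2.15-fold and 2.11-fold higher. Without Rhesus 3 this list gave the same counts, and with the ependymal mean held it gave 10 and 0.

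Of 10 genes of neurons in general, 4 were higher in CN and 1 in PUT, beside 19.4% and 19.1% of all genes tested. The list counts were 1 and 0 with the ependymal mean held. Their median was 0.05, and the list mean was higher in CN in 7 of 8 animals. MAP2 (a dendritic microtubule protein) was 1.94-fold and SYN1 (synapsin I) 1.68-fold higher in CN. Neurofilament genes, which mark large axons, were all higher in PUT, 4 of 4 tested, with a median of -0.61, of which only NEFM was called with the ependymal mean held. NEFM ran from 257 to 618 CPM in CN and from 649 to 905 in PUT without overlap (log2 fold change -0.94 ± 0.09, adjusted p = 1.59e-06), and NEFH, NEFL and INA were 1.81-fold, 1.29-fold and 1.23-fold higher. All 4 are callosum-low. In GP, the neighbor of PUT, the medians were 829 CPM for NEFM, 279 for NEFH and 1513 for NEFL, and the part of pallidal tissue in the PUT values was not tested.

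Interneuron genes were more often higher in PUT, 7 of 13 against 2 in CN, beside 19.1% and 19.4% of all genes tested. Their median was -0.22, and with the ependymal mean held 4 were called higher in PUT and 1 in CN. PVALB (parvalbumin, of fast-spiking interneurons) had 0, 0.341 and 0.909 CPM in the lowest, median and highest CN sample and 3.79, 6.97 and 11.1 CPM in PUT (log2 fold change -4.17 ± 0.31, adjusted p = 2.28e-07). It is also a gene of pallidal neurons, with a median of 81.4 CPM in GP. PTHLH (parathyroid hormone-like hormone), which marks the same interneurons, ran from 8.61 to 18.2 CPM in CN and from 19.6 to 34.6 in PUT without overlap (log2 fold change -1.10 ± 0.09, adjusted p = 6.85e-07), and its mean in GP was 0.921 CPM.

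SLC18A3, the vesicular acetylcholine transporter of cholinergic interneurons, ran from 1.86 to 4.62 CPM in CN and from 7.18 to 17.2 in PUT without overlap (log2 fold change -1.78 ± 0.21, adjusted p = 1.31e-05), with a mean of 2.94 CPM in GP. CHAT, the acetylcholine-synthesizing enzyme, added here after its values were seen, was 2.05-fold higher in PUT and higher there in 7 of 8 animals (adjusted p = 0.0171). Its call was lost without Rhesus 7 and with the ependymal mean held (adjusted p = 0.0632). TAC3 (neurokinin B), of a primate striatal interneuron type, was higher in CN instead, at 8.00 to 15.9 CPM against 3.15 to 9.53 (2.46-fold). The other interneuron gene called higher in CN was LHX6, named after its values were seen, in 8 of 8 animals (log2 fold change 0.61, adjusted p = 2.44e-04). Below the filter, CALB2 was higher in CN in 8 of 8 animals, at means of 0.901 CPM in CN and 0.302 in PUT. TH, also below it, was higher in CN in 6 animals and in PUT in 1. The call of LHX6 was lost with the ependymal mean held (adjusted p = 0.40). SST and NOS1 were among the genes that did not pass (adjusted p = 0.587 and 0.48).

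Genes that are high in pallidum were checked as a class. Of 395 genes over 2-fold higher in GP than in ACb and neither callosum-high nor cilium-like, 124 (31.4%) were higher in PUT and 23 (5.82%) in CN. With these set aside too, 2538 genes remained higher in CN and 1606 in PUT. The callosum-low class, which gave 1265 calls higher in CN and 299 in PUT, was not set aside as a class. This excess in CN therefore depends on which classes were removed. Genes neither callosum-high, callosum-low nor cilium-like gave 1296 calls higher in CN and 1431 in PUT.

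Several of the largest PUT differences belonged to genes best known from other tissues. TG encodes thyroglobulin, the precursor of thyroid hormone. It had 0.222, 1.59 and 3.80 CPM in the lowest, median and highest CN sample, that is 2 to 43 counts, and 10.6, 18.1 and 32.1 CPM in PUT. The groups did not overlap (log2 fold change -3.54 ± 0.22, adjusted p = 4.37e-08), and ACb, GP and CC had means of 1.08, 1.27 and 1.43 CPM.

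KRT77, an epidermal keratin, differed far more between animals than between nuclei and still did so in pairs. It ran from 0.283 to 41.8 CPM with a median of 9.94 in CN and from 5.81 to 256 with a median of 60.8 in PUT. In CN and in PUT alike, Rhesus 6, 7, 8 and 11 were the highest animals and Rhesus 2 and 10 the lowest. PUT was higher in 8 of 8 animals (log2 fold change -2.97 ± 0.22, adjusted p = 2.11e-07), and the means were 0.598 CPM in ACb, 1.77 in GP and 0.0235 in CC.

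TESPA1, known from thymocyte signaling, ran from 5.65 to 73.8 CPM in CN and from 99.6 to 205 in PUT without overlap, with 2.97 CPM in ACb (log2 fold change -2.55 ± 0.25, adjusted p = 3.37e-06). SPA17 and PMFBP1, both known from sperm, were 5.66-fold and 5.54-fold higher in PUT without overlap. CAPN6 (a calpain without protease activity) was 5.66-fold, MEPE (a bone matrix protein) 4.87-fold and PLEKHD1 4.79-fold higher in PUT, with overlapping groups. All of these had mixture values between 0.02 and 0.17, and none was callosum-high.

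GNRH1, the gonadotropin-releasing hormone gene, was 14.6-fold higher in PUT, at 0.103 to 1.55 CPM in CN and 2.54 to 17.2 in PUT (adjusted p = 4.11e-07). It was the only one of the 10 leading PUT genes outside the callosum-high class whose mean in ACb, 7.26 CPM, was nearer to PUT than to CN. Of the leading PUT genes, 2 were callosum-high: NPC1L1, a sterol transporter (log2 fold change -2.31, mixture value -1.39), and KIF24, a kinesin (-2.32 against -0.09).

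In the CN direction the leading gene was DSP (desmoplakin, of cell junctions). It had 1.42, 24.5 and 60.1 CPM in the lowest, median and highest CN sample and 0, 0.262 and 1.36 CPM in PUT, with 0 counts in 3 PUT libraries. Rhesus 8 gave the lowest CN value, next to the highest PUT value without overlapping it (log2 fold change 5.89 ± 0.32, adjusted p = 1.99e-08). The mean was 8.54 CPM in ACb.

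STYK1 (a receptor-like kinase) was 15.1-fold, DACH2 (a transcription factor) 11.1-fold, ZPLD1 8.00-fold and KLHL1 7.90-fold higher in CN, with overlapping groups. PCDH19 (a protocadherin) at 8.22 to 35.4 CPM against 1.13 to 6.57, and FAT2 (an atypical cadherin) at 3.18 to 11.2 CPM against 0.678 to 1.44, did not overlap. C2H3orf22 completed the list at a median of 1.43 CPM in CN. STYK1, DACH2, KLHL1, C2H3orf22 and GDA had higher means in ACb (29.1, 27.4, 6.56, 2.45 and 193 CPM) than in CN.

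The genes with the smallest p in the CN direction differed by smaller folds but evenly. PITPNM3 (a lipid transfer protein) ran from 82.8 to 169 CPM in CN and from 21.8 to 52.4 in PUT (log2 fold change 2.07 ± 0.10, adjusted p = 1.15e-08). ADCY3 (an adenylyl cyclase), TRANK1, MAN1A1 (a Golgi mannosidase) and GPR101 (an orphan receptor) were 2.10-fold, 2.84-fold, 3.67-fold and 3.16-fold higher. None of the 5 overlapped between groups, and all are callosum-low with mixture values between 0.14 and 0.19.

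**Figure D5:**
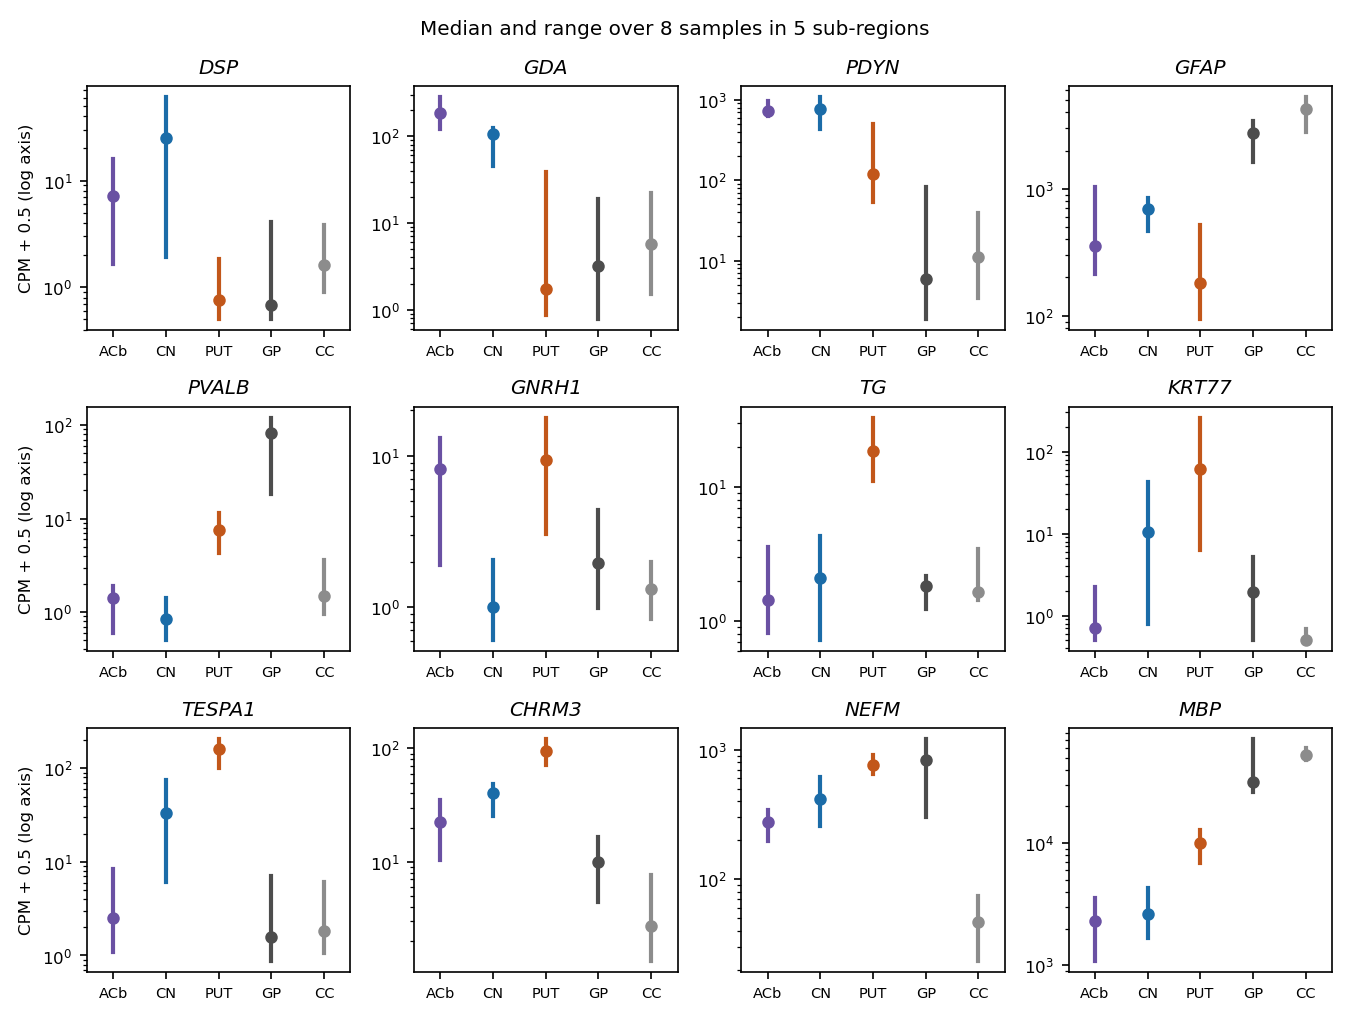
Median (point) and range (line) over 8 samples of 12 genes as CPM + 0.5 (y axes, log scale) in ACb, CN, PUT, GP and CC (x axes). TG, KRT77, TESPA1 and CHRM3 have their highest median in PUT and DSP in CN, PVALB and NEFM are highest in GP, GFAP and MBP in CC, and GDA in ACb.

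ACb was not simply intermediate. Of the 407 genes over 2-fold higher in CN, its mean log2 CPM lay above both nuclei for 177 (43.5%), between them for 208 (51.1%) and below both for 22 (5.41%). Of the 218 over 2-fold higher in PUT, it lay above both for 1 (0.459%), between for 56 (25.7%) and below both for 161 (73.9%). Over all genes tested the shares were 34.2%, 25.3% and 40.5%. The CN and PUT samples chose these genes and enter the shares as well.

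Excitatory neuron genes of cortex and claustrum had a median log2 fold change of -0.94. Of 5 tested, 2 were higher in PUT and none in CN, beside 19.1% and 19.4% of all genes tested. The list counts were the same without Rhesus 3. FEZF2, a transcription factor, was higher in PUT (log2 fold change -0.62) and kept its call without Rhesus 3 (adjusted p = 0.0202). SLC17A7 and NR4A2 did not pass (adjusted p = 0.0518 and 0.051), and without Rhesus 3 their adjusted p rose to 0.208 and 0.165. The summed list was 207.8 CPM in the PUT sample of Rhesus 3 and 12.3 to 20.8 CPM in the other 7 PUT samples, against 8.41 to 13.7 CPM in CN. ACb, from which genes were classed, had 14.2, 18.2 and 358.7 CPM in its lowest, median and highest sample. The part of cortical RNA in the classes was not tested.

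Samples of one nucleus also differed in how far they stood from the other. Of the 407 genes over 2-fold higher in CN, Rhesus 4 was the highest PUT sample for 156, and of the 218 over 2-fold higher in PUT it was the lowest PUT sample for 130. In CN, Rhesus 8 was the lowest sample for 141 of the 407 and Rhesus 2 for 116, and Rhesus 2 was the highest for 79 of the 218. These genes were chosen on the same samples. The median within-animal difference over the 407 genes lay between 1.08 (Rhesus 8) and 1.45 (Rhesus 10), and over the 218 genes between -1.55 (Rhesus 6) and -1.04 (Rhesus 8).

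Neither age stage nor sex changed the difference between the nuclei for any gene at the threshold. The test of the interaction called 0 of 14410 genes for age and 0 for sex with edgeR, and 0 with DESeq2 in both cases. At an unadjusted p below 0.05 there were 583 (4.05%) and 383 (2.66%) genes with edgeR and 330 (2.29%) and 170 (1.18%) with DESeq2. The myelin list mean differed between CN and PUT by -1.37 ± 0.17 (SD, n = 4) in young and -1.67 ± 0.26 (SD, n = 4) in mid-aged animals, and by -1.69 ± 0.21 in females and -1.35 ± 0.19 in males, and the ranges over animals overlapped in both splits.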

How the data were processed

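Total RNA was depleted of ribosomal RNA, and directional libraries were sequenced. The authors trimmed low-quality reads, mapped them with HISAT2 (v2.0.5) to Mmul 8.0.1 and counted reads per Ensembl gene with HTSeq (v0.6.1). The deposited counts of 30807 genes in 408 samples were used unchanged, and the strand option is not given in the sources used here. Symbols came from a table of gene names that matched 17572 IDs. Multi-copy genes and overlapping genes can share reads.

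Counts were fitted with edgeR (v4.0.16, R 4.3.3; TMM scaling, filterByExpr, glmQLFit and glmQLFTest) with nucleus and animal as terms, following the study's model of region and individual. DESeq2 (v1.42.0) was an alternative. A gene was called at an adjusted p below 0.05. CPM used TMM-scaled library sizes, and list means were taken of log2(CPM + 0.5). Same-numbered samples come from the same animal: deviations from the group means correlated at 0.446 to 0.668 within animals. On simulated counts of 14410 genes for CN against PUT, 184 of 200 genes changed 2-fold and 200 of 200 changed 4-fold were recovered, with 9 and 12 other calls. The changed genes were drawn above a minimum mean count, with equal numbers in each direction, and all other genes were left unchanged. In the measured data 38.5% of genes were called, so these rates do not carry over to it or to low genes. Library sizes of 8101544 to 11695718 limit genes of a few counts, and the floor of 3 counts covers counting error only.

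Named genes were given markers, per direction the 10 largest changes with at least 1 CPM and 1 direction in all 8 animals, the same 10 outside the callosum-high and cilium-like classes, up to 4 genes of each list by p, and the 5 smallest p. RASGRP2, CHAT, SPAG6, LHX6, CALB2, TH, SST, NOS1, RSPH1, DNAI1, MCIDAS, SPAG17 and CAPSL were added later. Some genes that the rule names are not reported here. The 3 markers (TG, KRT77, CFAP161), the 20 lists (230 of 283 entries measured) and the comparison were chosen with earlier results of these data known, and support nothing by themselves. The mixture value, the callosum-low and pallidum-high classes and the counts without Rhesus 3 were chosen after seeing the data. Assembled transcripts were not used.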

Additional observations from a re-analysis of the deposited data

Results flagged for a closer look

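In 9 of 205 groups of 8 samples, 1 sample stood far from the other 7 (Dixon's test at the 95% level, which chance passes in about 1 group in 20). All values are log2(CPM + 0.5). In PUT, Rhesus 3 was the highest for SLC17A7 (6.81, others up to 2.18), FEZF2 (3.50, others up to 2.57), NR4A2 (4.87, others up to 2.17) and the mean of the cortical excitatory list (4.02, others up to 1.36). Rhesus 4 was the highest PUT sample for DACH2 (2.99, others up to 0.71), the highest CN sample for GPR6 (7.41, others up to 6.90) and the lowest CN sample for CNDP1 (4.44, others from 5.59). In CN, Rhesus 8 was the lowest for KL (2.95, others from 3.74) and Rhesus 2 for PDYN (8.76, others from 9.45).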

How the results depend on the processing

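The counts of genes higher in CN and in PUT moved by less than 1.5 times with DESeq2, its size factors, TMM factors from genes neither callosum-high nor cilium-like (2564 and 3188), other count filters, all 24 striatal samples in 1 fit, or any animal left out (2375 to 2773 higher in CN, 2141 to 2683 in PUT). Genes over 2-fold higher in CN numbered 654 with a count above 1 in 3 samples and 620 with no filter, since more low genes entered. Without the replicate block, 1435 genes were higher in CN and 1264 in PUT, and 9 of 94 called named genes (KL, ITGAM, CSF1R, GPR6, NPTX2, INA, FOS, EGR2, JUNB) lost their call. A fold above 4 left 68 and 19 genes, and 831 callosum-high ones, and r thresholds of 0.5 and 0.8 gave 91 and 1 cilium-like genes. CSF1R and GPR6 lost their calls without Rhesus 3, 7, 10 or 11, and CHAT without Rhesus 7. In the fit of all 24 samples, ITGAM, EGR2, CSF1R and GPR6 lost theirs.

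With the ependymal mean held, 557 and 516 genes and 38 list genes higher in CN were called, 67 of 94 called named genes kept their call, 25 lost it (ARMC3, MAPK15, HYDIN, DNAH5, DACH2, ZPLD1, C2H3orf22, OLIG2, KL, ITGAM, CSF1R, FOXP1, ISL1, GPR6, KCNIP1, CHAT, FEZF2, CHGB, MAP2, NEFH, INA, NEFL, FOS, EGR2, JUNB), and the sign turned for FOXJ1 (-0.19), DRD1 (0.080), TAC1 (0.22), LHB (-1.025), SLC17A7 (0.92) and NR4A2 (0.34). With the myelin mean, or both means, 0 genes passed, over 2-fold or not, and 0 list genes. Signs turned with the myelin mean for FOXJ1 (-2.42), DRD1 (0.44), TAC1 (0.51), DACH2 (-0.27), LHB (-13.44), MAPK15 (-0.22), C2H3orf22 (-1.58), TESPA1 (1.05), CAPN6 (0.75), NPC1L1 (0.37), BCAS1 (0.35), NEU4 (0.0061), OLIG2 (0.16), CFAP47 (-0.35), HYDIN (-0.25), CSF1R (-0.048), ISL1 (-0.76), KCNIP1 (-0.0090), SLC17A7 (2.50), FEZF2 (0.063), VGF (-1.09), SCG2 (-0.25), NEFL (0.51), EGR2 (-0.49) and JUNB (-0.42). With both means they turned for FOXJ1 (-0.87), DRD1 (0.39), TAC1 (0.32), DACH2 (-0.060), LHB (-6.68), C2H3orf22 (-2.14), TESPA1 (0.57), CAPN6 (1.01), NPC1L1 (0.37), BCAS1 (0.39), OLIG2 (0.22), CFAP47 (-0.51), CSF1R (-0.086), ISL1 (-0.94), KCNIP1 (-0.076), RASGRP1 (-0.014), VGF (-1.51), SCG2 (-0.39), NEFL (0.36), EGR2 (-0.88) and JUNB (-0.65). The myelin mean followed the nucleus at r = -0.988 within animals. Fits with it cannot separate the nucleus from its myelin content, and the signs that turned there cannot be read as a direction. Not only these turned values but no gene at all passed the threshold in such a fit. The cause of the other turns was not tested.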

Other observations

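The 3 cilium-like genes above the filter were all higher in CN, among them CFAP100 (log2 fold change 2.60) and DNAH7 (1.65), a motile cilium protein and an inner dynein arm heavy chain. At a looser r of 0.5, 62 of 91 genes were higher in CN and 5 in PUT, with a median of 0.73.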
